A study of Homo sapiens with 20 samples.

Results

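Zinc finger genes of chromosome 19 were followed through a set of knockdowns of the small RNA machinery in human HEK293 cells, a line derived from embryonic kidney. The members are all protein-coding genes of chromosome 19 whose symbol is ZNF followed by digits alone. This rule gave 240 of the 57087 genes counted, and no measured value was used in it. Genes named ZFP, or ZNF with a closing letter, lie outside it.

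Most of these genes encode KRAB zinc finger proteins, a large family of DNA-binding repressors. Their C2H2 fingers read DNA, often within transposable elements, while the KRAB domain recruits the corepressor TRIM28, which brings the histone methyltransferase SETDB1 and HP1 proteins and so packs the bound region into heterochromatin. The genes spread by tandem duplication, therefore they lie in clusters and neighbours resemble each other in sequence.

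In mRNA-seq, 3 wt libraries came from HEK293T cells and 3 shDicer libraries from HEK293 2B cells carrying a hairpin against Dicer, and both groups were kept in doxycycline (3 µg/ml) for 7 days. This RNA is labelled polyA, whereas the methods describe removal of ribosomal RNA. In chrRNA-seq, which measures RNA retained on chromatin and hence largely nascent transcripts, there were 2 libraries each of wt, shDicer, shAgo2 and shDrosha, all labelled HEK293. The shDicer and shAgo2 lines have an integrated inducible hairpin and received doxycycline (3 µg/ml) for 72 h, while the hairpin against DROSHA was transfected as a plasmid. Whether wt and shDrosha cells of chrRNA-seq received doxycycline is not given in the labels, and no line with a scrambled hairpin is among these 14 libraries. The methods describe the inducible lines as recombinant HEK293T-REx cells, among them a clone that carries a tagged Dicer together with the hairpin, and do not say which of them HEK293 2B is. The line and the knockdown that it carries therefore cannot be told apart. Nothing states that libraries of a group came from separate cultures, so p-values measure only the spread between these libraries, which may be technical.

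Libraries held 10216430 to 17215978 estimated counts in mRNA-seq and 17484067 to 21553760 in chrRNA-seq. The targeted genes were examined first. Levels are in CPM, counts scaled to the total of the library and to its TMM scaling factor. DICER1 was at 252, 257 and 232 CPM in mRNA-seq wt and at 80.6, 94.4 and 88.3 CPM in shDicer. All shDicer libraries lay below wt (log2 fold change −1.49 ± 0.08, SE, edgeR quasi-likelihood test with Benjamini-Hochberg adjustment, adjusted p = 1.3e-07). On chromatin DICER1 was not called in shDicer (−0.18 ± 0.09, adjusted p = 0.17). In shAgo2 DICER1 was higher, at 204 and 214 CPM against 119 and 124 CPM in wt (0.78 ± 0.09, adjusted p = 3.6e-05). AGO2 was lower in shAgo2 (−0.62 ± 0.08, adjusted p = 9.3e-05), and DROSHA was not called in the libraries labelled shDrosha (0.07 ± 0.08, adjusted p = 0.70). Below, shDicer and shDrosha on chromatin name libraries by their labels. The inducible lines differed from wt in cell type markers too. EPCAM, an epithelial adhesion gene, was at 1.36 and 1.64 CPM in chrRNA-seq wt, at 40.8 and 49.2 CPM in shDicer, at 37.2 and 37.0 CPM in shAgo2, and at 1.71 and 2.07 CPM in shDrosha. Summed over 5 markers of other cell types, libraries held 35.2 to 39.2 CPM in wt, 80.3 to 87.5 CPM in shDicer, 80.3 to 83.2 CPM in shAgo2 and 37.1 to 39.6 CPM in shDrosha, with the hepatocyte marker ALB below 1 CPM in each chrRNA-seq library. Without EPCAM these sums were 33.5 to 37.8 CPM in wt, 38.4 to 39.5 CPM in shDicer and 43.0 to 46.2 CPM in shAgo2. In mRNA-seq these 5 markers summed to 2.87 to 3.24 CPM in wt and 158 to 184 CPM in shDicer, of which all but 1.14 to 1.65 CPM in shDicer was EPCAM. The 4 HEK293 markers summed to 72.9 to 73.8 CPM in chrRNA-seq wt and 152 to 266 CPM in the inducible lines. Among them the neurofilament genes moved in opposite directions. NEFL was at 13.1 and 10.9 CPM in wt, 124 and 196 CPM in shDicer, and 89.3 and 91.3 CPM in shAgo2, while NEFM was at 24.1 and 24.8 CPM in wt, 2.32 and 2.70 CPM in shDicer, and 1.18 and 0.655 CPM in shAgo2 (−3.28 ± 0.15 and −4.71 ± 0.18). Of the 8 markers tested on chromatin, 4 were higher and 1 lower in each inducible line, and NEFM was lower in shDrosha too. Their part in the results below was not tested. In bulk samples, fewer cells of a type and less RNA per cell cannot be told apart.

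The members formed 9 clusters, here called C1 to C9 in order along the chromosome, with 9 members standing alone. A cluster is a run of at least 4 members with no gap above 1 Mb (GRCh38, GENCODE annotation). C1 held 5 members at chr19:2819868-2944971, C2 held 15 at chr19:7069703-9793180, C3 held 25 at chr19:11483427-12640098 and C4 held 37 at chr19:19668796-24129968. C5 held 5 at chr19:34677639-34964229. C6 contains the long non-coding RNA gene LINC00665 and held 24 at chr19:36182276-37817300, from ZNF565 to ZNF573. C7 held 24 at chr19:43525497-45076478, C8 held 39 at chr19:51571283-53580269 and C9 held 57 at chr19:55476617-58481230.

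A KRAB A box was found in the proteins of 204 members and was not found in 36, of which 15 lie in C9. Proteins held a median of 12 matches to the C2H2 pattern, from 1 in ZNF414 and ZNF428 to 36 in ZNF208. As near-duplicates share sequence, part of the reads had to be divided among genes. In the median member, 9.63% of 31-base stretches of its transcripts also occurred in another gene. This share was above 20% in 49 members and above 50% in 9, among them ZNF177 and ZNF625, whose values are uncertain.

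Promoters of 210 members were found in RefSeq (GRCh38.p14), each reaching from 250 bases before the start site to 50 after it. Those of 4 members with large changes in 4 different clusters are shown, because these genes carry the results below. They are written 5′ to 3′ on the strand of the gene, with CpG dinucleotides in capitals.
ZNF227 of C7, chr19:44212282-44212581, plus strand: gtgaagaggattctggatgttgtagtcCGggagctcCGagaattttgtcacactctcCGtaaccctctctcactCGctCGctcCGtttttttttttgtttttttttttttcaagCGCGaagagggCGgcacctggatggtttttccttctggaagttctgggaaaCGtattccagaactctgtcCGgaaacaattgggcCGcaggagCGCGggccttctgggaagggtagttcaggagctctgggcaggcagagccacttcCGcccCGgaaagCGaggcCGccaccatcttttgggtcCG
ZNF875 of C6, chr19:37312587-37312886, plus strand: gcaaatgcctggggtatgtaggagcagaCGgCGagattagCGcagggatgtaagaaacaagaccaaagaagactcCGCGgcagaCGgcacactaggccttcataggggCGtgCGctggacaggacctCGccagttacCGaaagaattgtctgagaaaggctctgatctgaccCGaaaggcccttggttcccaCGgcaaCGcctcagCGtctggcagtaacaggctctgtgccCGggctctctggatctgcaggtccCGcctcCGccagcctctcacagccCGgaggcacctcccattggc
ZNF43 of C4, chr19:21836133-21836432, minus strand: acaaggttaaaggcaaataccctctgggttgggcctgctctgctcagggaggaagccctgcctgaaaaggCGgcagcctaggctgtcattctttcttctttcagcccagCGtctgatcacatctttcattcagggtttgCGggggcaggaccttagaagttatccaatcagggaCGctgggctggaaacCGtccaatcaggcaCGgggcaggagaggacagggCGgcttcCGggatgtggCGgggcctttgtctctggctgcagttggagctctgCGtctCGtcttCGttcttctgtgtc
ZNF544 of C9, chr19:58228664-58228963, plus strand: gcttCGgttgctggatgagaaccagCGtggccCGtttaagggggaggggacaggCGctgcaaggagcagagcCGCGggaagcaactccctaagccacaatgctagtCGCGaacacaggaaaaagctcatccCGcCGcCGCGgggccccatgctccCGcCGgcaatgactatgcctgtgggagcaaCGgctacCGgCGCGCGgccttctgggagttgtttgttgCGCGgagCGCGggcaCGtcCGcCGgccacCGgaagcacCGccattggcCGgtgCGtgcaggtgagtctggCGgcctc

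These windows held 19, 18, 12 and 31 CpGs, in that order. The median was 20 over the member promoters and 14 over all 27305 promoters of the table. Among clusters the median was lowest in C4, at 10 CpGs, and C6 had 23 and C7 had 19. The GC box GGGCGG was found on either strand in 69.5% of member promoters and 44.6% of all promoters, but in 7 of 23 promoters of C6 (30.4%) and 8 of 20 of C7 (40%). The CCAAT box CCAAT was found in 52.9% of member promoters and 35.7% of all, and in 17.4% of C6. The ETS motif CCGGAAGT was found in 19% and 4.44%, and the TATA box TATAAA in 1.90% and 12%. A GC box counts both strands and these motifs can overlap. A match describes the letters of these windows and not a bound site.

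In wt cells the members were at low levels. Their median was 1.58 TPM (a level scaled to transcript length and library) in mRNA-seq and 7.11 TPM in chrRNA-seq. In mRNA-seq the highest was ZNF146, a protein of 10 fingers without KRAB, with 61.1 ± 4.3 TPM (SD, n = 3). ZNF121 (31.7 ± 1.3 TPM) and ZNF714 (22.1 ± 0.45 TPM) followed, and then ZNF302 (10.9 ± 0.83 TPM) and ZNF561 (10.8 ± 0.58 TPM), which did not differ beyond their spread. On chromatin ZNF814 led with 58.9 ± 5.8 TPM (SD, n = 2), ahead of ZNF431 (47.4 ± 1.1 TPM), and ZNF875, ZNF611 and ZNF561 lay between 42.6 and 44.7 TPM. These last 3 did not differ beyond their spread. A mean below 1 CPM in wt was seen for 55 members in mRNA-seq and for 13 in chrRNA-seq.

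On chromatin, many zinc finger genes were higher in shDicer than in wt cells. Of the 234 members tested, 99 were higher and 10 lower (adjusted p under 0.005), with a median log2 fold change of 0.33. Of all 32874 genes tested, 11% were higher and 10.5% lower, with a median of 0.01. The summed level of the members was 6422 and 6430 CPM in wt, and 9112 and 9045 CPM in shDicer, above both wt libraries. ZNF genes of other chromosomes were higher in 33 and lower in 57 of 226 cases, and other coding genes of chromosome 19 in 124 and 139 of 1022. Counts scaled from the deposited TPM gave 55 higher and 1 lower, and the cause of this difference was not tested. Without wt replicate 1, wt replicate 2 or shDicer replicate 2, 5 members were lower in place of 10.

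In shAgo2 cells the count was larger. Here 132 members were higher and 8 lower of 234, with a median of 0.60, while 12.5% of all genes were higher and 12.1% lower, with a median of 0.00. The sum of the members was 10571 and 10574 CPM, above every wt and shDicer library. The shDicer and shAgo2 comparisons use the same wt libraries. Counts scaled from TPM gave 84 higher and 1 lower, and leaving out a single wt or shAgo2 library gave 4 or 5 lower (4 without shAgo2 replicate 1, 5 without each of the others).

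In the libraries labelled shDrosha few members were called. Of 234 members, 1 was higher and 2 were lower at an adjusted p under 0.05, where 1.19% of all genes were higher and 2.18% lower. The median was −0.04 and the sum was 6343 and 6379 CPM, below both wt libraries on this scale. The TMM factors of wt and shDrosha libraries ran from 0.968 to 1.05, a wider range than this gap. The direction of the gap therefore rests on the scaling. ZNF728 was at 0.474 and 0.568 CPM in wt and at 1.60 and 1.36 CPM in shDrosha (1.49 ± 0.35, adjusted p = 0.040), and is named here because the count is 1. ZNF575, a member of C7 without KRAB, was at 16.6 and 16.6 CPM in wt and at 9.76 and 11.8 CPM in shDrosha (−0.62 ± 0.15, adjusted p = 0.043). ZNF497 of C9 was at 26.1 and 25.5 CPM in wt and at 19.4 and 20.4 CPM in shDrosha (−0.38 ± 0.09, adjusted p = 0.046). All 3 had shDrosha libraries outside the range of wt. Leaving out either wt library or shDrosha replicate 1 left 0 calls, whereas 0 higher and 3 lower were called without shDrosha replicate 2, and 1 higher and 5 lower without the low-count filter.

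Tested against shDrosha in place of wt, 100 members were higher in shDicer and 5 lower, beside 11% and 9.51% of all genes. In shAgo2, 137 were higher and 4 lower, beside 11.6% and 10.3% of all genes. The shDicer and shAgo2 libraries are those of the tests against wt.

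Steady-state mRNA gave the same direction for many of the genes, in separate libraries. Of 207 members tested, 68 were higher and 8 lower in shDicer (adjusted p under 0.001), with a median of 0.38, while 15.6% of 15090 genes were higher and 14.2% lower, with a median of 0.01. The summed level was 3346, 3396 and 3247 CPM in wt and 4308, 4704 and 4546 CPM in shDicer, without overlap. Other coding genes of chromosome 19 had a median of 0.32, with 122 higher and 15 lower of 666, close to that of the members, whereas ZNF genes of other chromosomes had a median of −0.13. Of the members tested in both assays, 60 were higher in shDicer in both, out of 97 higher on chromatin and 68 in mRNA, 2 were lower in both, and 0 went opposite ways. The same overlap was not counted over all genes, so it cannot be called particular to the members. Of the tested members, 22 were below the count filter in wt and so could pass through their shDicer level alone. Counts scaled from TPM gave 34 higher and 0 lower, and the count of 8 lower fell to 3 without any 1 of the wt libraries, to 5 without shDicer replicate 2 and to 4 without shDicer replicate 3.

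**Figure D1:**
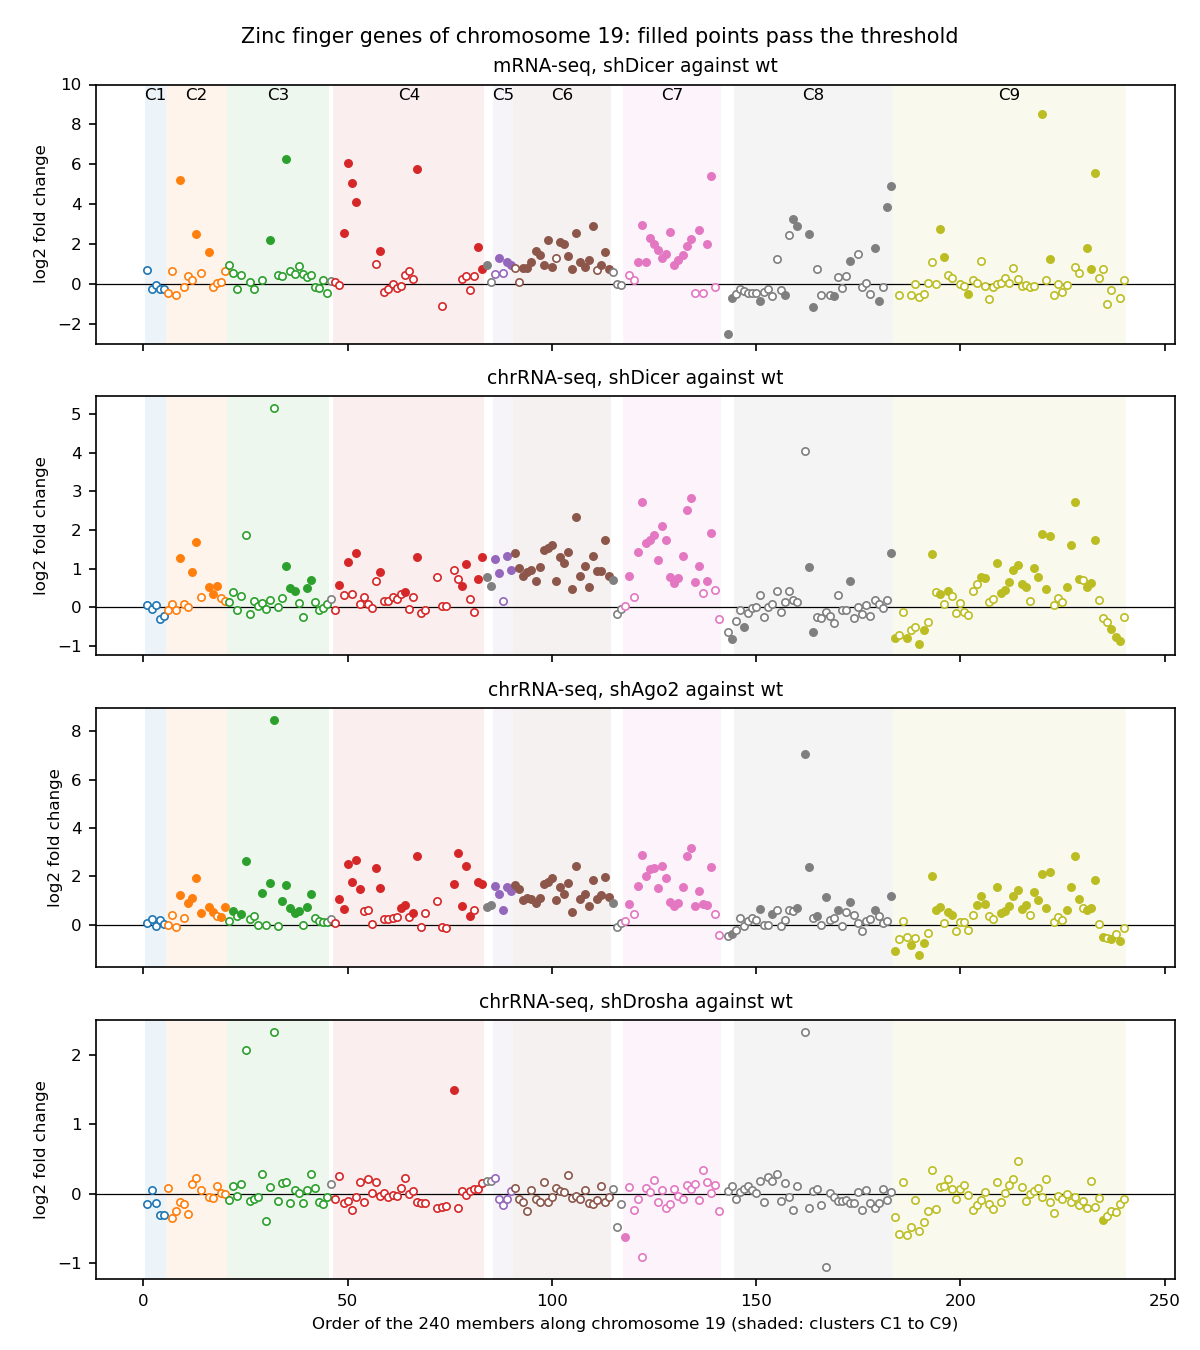
Log2 fold change (y axis, scale set per panel) of each tested member in order along chromosome 19 (x axis, 1 to 240) in 4 comparisons with wt, with clusters shaded and members past the threshold filled. All 24 members of C6 are filled and above 0 in chrRNA-seq shDicer and shAgo2, and 3 members are filled in shDrosha.

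The higher members were unevenly placed along the chromosome. In C6, around LINC00665, all 24 members were higher in shDicer and all 24 in shAgo2, with medians of 1.02 and 1.25. Over the 24, fitted folds ran from 1.38 to 5.08 in shDicer and from 1.43 to 5.37 in shAgo2. In mRNA-seq 20 of 24 were higher and 0 lower, with a median of 1.08, and ZNF565, ZNF146, ZNF345 and ZNF540 were not called. In shDrosha 0 of 24 were called, with a median of −0.06. Summed over C6, the level was 706 and 684 CPM in wt, 1570 and 1536 CPM in shDicer, 1833 and 1792 CPM in shAgo2, and 663 and 692 CPM in shDrosha, which overlapped wt.

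LINC00665 itself (chr19:36259540-36331770) is not a member and serves as a landmark. It was at 46.0 and 46.9 CPM in wt, 293 and 283 CPM in shDicer, 419 and 421 CPM in shAgo2, and 44.7 and 45.8 CPM in shDrosha. Both inducible lines lay far above wt, with log2 fold changes of 2.63 ± 0.08 (adjusted p = 8.6e-10) and 3.18 ± 0.08 (adjusted p = 3.0e-10). In mRNA-seq it was at 3.24, 2.49 and 2.66 CPM in wt and 21.8, 18.4 and 20.3 CPM in shDicer (2.84 ± 0.16, adjusted p = 1.5e-07).

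The members next to LINC00665 changed less than LINC00665. On its left, ZNF565 was at 5.87 and 6.32 CPM in wt, 17.2 and 14.9 CPM in shDicer, and 21.8 and 16.5 CPM in shAgo2. ZNF146 was at 41.0 and 40.8 CPM in wt, 83.5 and 80.7 CPM in shDicer, 117 and 111 CPM in shAgo2, and 35.6 and 42.2 CPM in shDrosha. Both genes were above wt in every library of the inducible lines. In mRNA-seq, by contrast, ZNF146 was at 309, 321 and 328 CPM in wt and 314, 361 and 358 CPM in shDicer, with overlapping ranges (0.11 ± 0.07, adjusted p = 0.23). On the right, ZNF566, ZNF260, ZNF529, ZNF382 and ZNF461 were higher in shDicer by 0.80, 0.92, 0.97, 0.68 and 1.03 on the log2 scale, and in shAgo2 by 0.996, 1.11, 1.07, 0.88 and 1.11. All 5 were higher in mRNA-seq too, by 0.77 to 1.63.

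The largest change in C6 on chromatin was that of ZNF875, a KRAB protein of 13 fingers. It was at 47.7 and 46.9 CPM in wt, 243 and 238 CPM in shDicer, 260 and 248 CPM in shAgo2, and 44.7 and 48.1 CPM in shDrosha. The inducible lines stood apart from wt, and shDrosha overlapped it (2.35 ± 0.08 in shDicer, adjusted p = 1.5e-09, and 2.42 ± 0.08 in shAgo2, adjusted p = 1.2e-09). Its mRNA was at 11.1, 10.2 and 8.50 CPM in wt and at 57.7, 60.2 and 58.9 CPM in shDicer (2.56 ± 0.11, adjusted p = 3.5e-08). The promoter of ZNF875 shown above held no GC box.

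**Figure D2:**
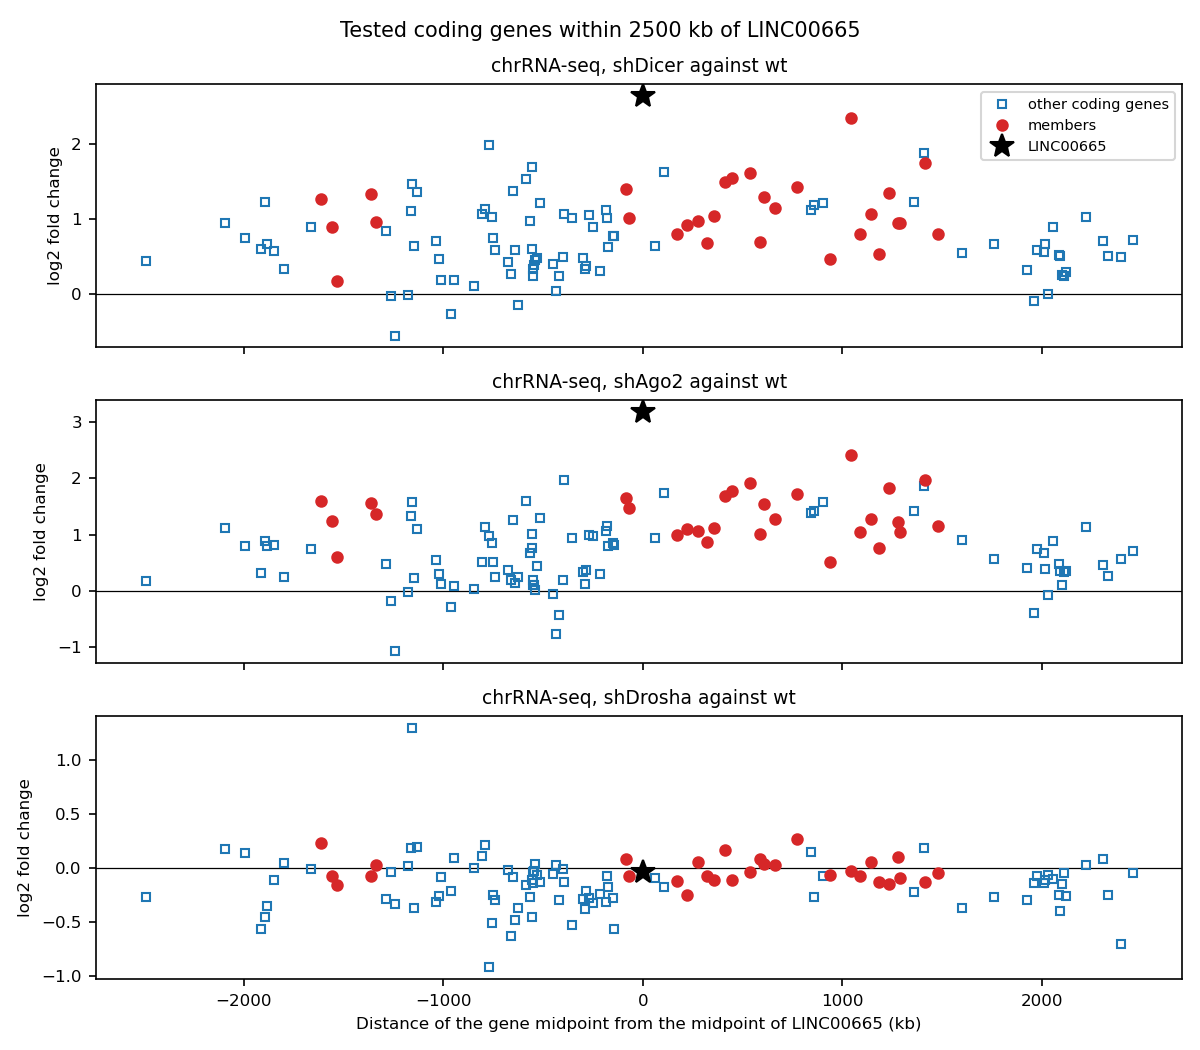
Log2 fold change (y axis) of tested coding genes against distance of the gene midpoint from that of LINC00665 (x axis, kb), in 3 chrRNA-seq comparisons with wt, with members as filled circles, other coding genes as open squares and LINC00665 as a star. LINC00665 lies at 2.63 in shDicer and 3.18 in shAgo2, and the members of C6 lie above 0 in both and around 0 in shDrosha.

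Coding genes that are not members were often higher over the same stretch of the long arm. They include zinc finger genes outside the rule, such as ZNF780A and ZNF780B between C6 and C7. Between C4 and C5, 21 of 35 other coding genes were higher in shDicer and 0 lower, with a median of 0.59. Between C5 and C6 these counts were 21 of 52 and 0, with a median of 0.59, and between C6 and C7 44 of 133 and 2, with a median of 0.41. In shAgo2 the medians of these 3 stretches were 0.68, 0.41 and 0.38, and in mRNA-seq shDicer 0.63, 0.94 and 0.83. The members of C5, C6 and C7 had higher medians than these stretches in chrRNA-seq. Past C7 the neighbours changed direction, with 2 of 199 higher and 66 lower before C8 (median −0.37 in shDicer and −0.43 in shAgo2). Within the span of C6, 7 of 7 other coding genes were higher in both lines, of which 5 are zinc finger genes outside the rule (ZFP14, ZFP82, ZNF585A, ZNF585B and ZFP30). Their medians were 1.21 in shDicer and 1.43 in shAgo2, above the 1.02 and 1.25 of the C6 members. Over all 35 other genes tested in this span, non-coding ones included, 30 and 29 were higher, with medians of 1.63 and 1.75. The members of C6 thus did not stand above the other genes of their own span. These other genes include LINC00665 itself and RNAs named after members, such as ZNF790-AS1, so they are not all separate from the members. The files hold RNA alone, so a difference between the lines in the DNA of this stretch cannot be told apart from the knockdown, and its part in the results was not tested.

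C7 changed as much as C6. Of its 24 members, 19 were higher in shDicer and 20 in shAgo2, with 0 lower and medians of 1.15 and 1.45, and in mRNA-seq 17 of 22 were higher, with a median of 1.48. The 23 other coding genes of the span had medians of 0.11 in shDicer and −0.04 in shAgo2, with 3 and 1 of them higher. The sum over C7 was 471 and 457 CPM in wt, 1154 and 1189 CPM in shDicer, 1382 and 1412 CPM in shAgo2, and 465 and 463 CPM in shDrosha. Of the 4 members of C7 without KRAB, 3 were called in neither line (ZNF575, ZNF428 and ZNF296).

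ZNF227 of C7, a KRAB protein of 18 fingers, had the largest change on chromatin among members above the level set for naming. It was at 29.2 and 28.9 CPM in wt, 200 and 215 CPM in shDicer, 254 and 267 CPM in shAgo2, and 30.3 and 30.4 CPM in shDrosha. The inducible lines lay far above wt (2.84 ± 0.08, adjusted p = 8.1e-10, and 3.17 ± 0.08, adjusted p = 4.2e-10). Its mRNA was at 31.8, 35.3 and 29.5 CPM in wt and 145, 165 and 152 CPM in shDicer. ZNF226, its neighbour, was at 21.9 and 21.9 CPM in wt, 121 and 130 CPM in shDicer, and 153 and 161 CPM in shAgo2. ZNF222 was at 3.68 and 3.54 CPM in wt, 16.2 and 14.8 CPM in shDicer, and 19.1 and 19.5 CPM in shAgo2. For both genes every library of the inducible lines was above wt.

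C5, with 5 members, had 4 higher in shDicer and 5 in shAgo2, with medians of 0.96 and 1.37. ZNF302 was at 17.9 and 18.1 CPM in wt, 39.1 and 46.9 CPM in shDicer, and 53.7 and 55.8 CPM in shAgo2. In mRNA-seq its 47.9, 52.0 and 52.0 CPM in wt and 58.2, 70.8 and 80.6 CPM in shDicer did not overlap but missed the threshold (0.47 ± 0.11, adjusted p = 0.0047). ZNF30 and ZNF792 were higher by 1.34 and 0.96 in shDicer. ZNF599 was higher in shAgo2 (0.61 ± 0.10, adjusted p = 6.1e-04) and was not called in shDicer (0.16 ± 0.11, adjusted p = 0.26).

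Clusters toward the start of the chromosome changed less. In C1 none of the 5 members was called on chromatin or in mRNA, with medians of −0.06 in shDicer and 0.05 in shAgo2. C2 had 6 of 14 members higher in shDicer and 9 in shAgo2, C3 had 5 and 13 of 25, and C4 had 10 and 19 of 34, with 0 lower in each. Their medians were 0.26, 0.15 and 0.29 in shDicer and 0.49, 0.43 and 0.66 in shAgo2. In C8, 3 of 38 were higher and 2 lower in shDicer, and 11 higher and 0 lower in shAgo2. C9 was the most mixed, with 25 higher and 7 lower of 57 in shDicer, and 28 and 7 in shAgo2. Beside these counts, 11% of all genes were higher and 10.5% lower in shDicer, and 12.5% and 12.1% in shAgo2.

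**Figure D3:**
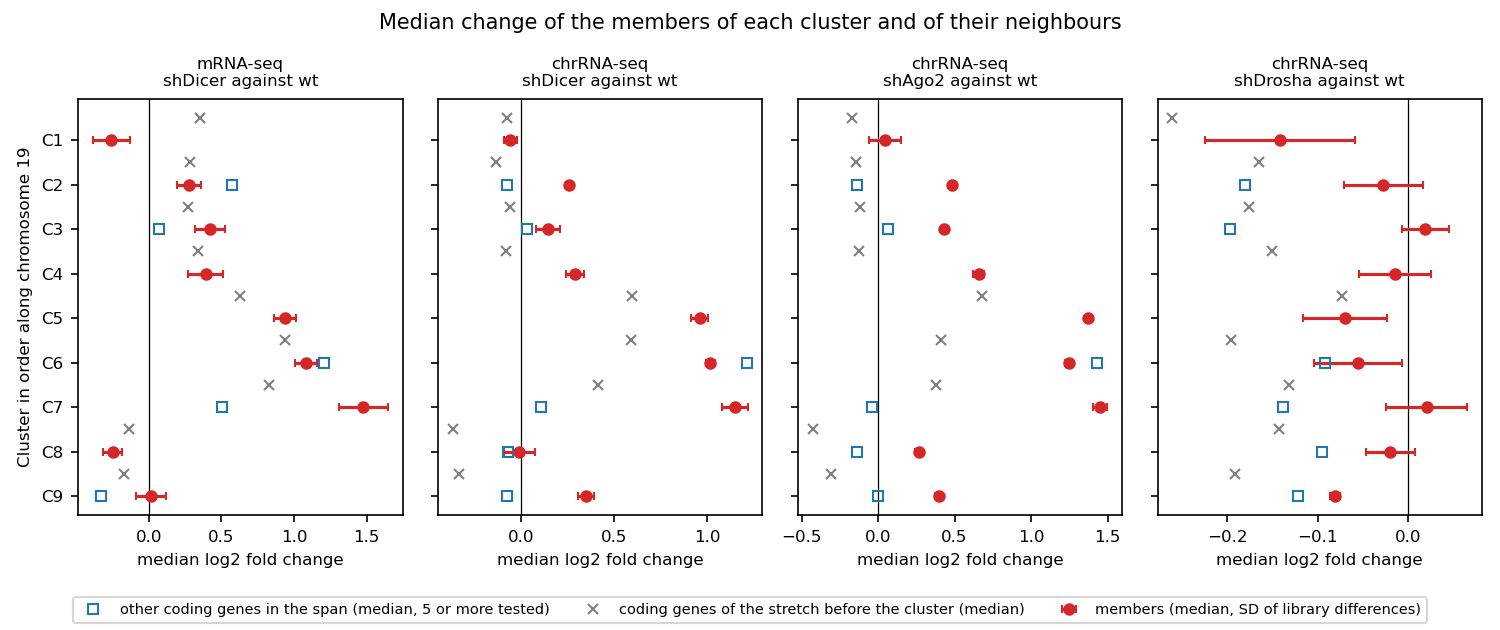
Median log2 fold change (x axis, scale set per panel) of the members of each cluster (filled circles, with the SD of differences between single libraries), of other coding genes in its span (open squares) and of coding genes in the stretch before it (crosses), for clusters C1 to C9 (y axis) in 4 comparisons. C5, C6 and C7 lie between 0.94 and 1.48 in shDicer and shAgo2, to the right of the other clusters.

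In mRNA-seq the counts of C8 lay near the shares over all genes. Of the 35 members of C8 tested there, 7 were higher and 5 lower in shDicer, beside 15.6% and 14.2% of all genes. The largest fall in mRNA was outside the clusters, in ZNF114, named after its values were seen, at 2.84, 3.11 and 2.25 CPM in wt and 0.392, 0.378 and 0.596 CPM in shDicer (−2.54 ± 0.32, adjusted p = 5.4e-05). ZNF614, a KRAB protein, was at 42.8, 42.7 and 36.6 CPM in mRNA-seq wt and 20.8, 23.5 and 22.5 CPM in shDicer (−0.87 ± 0.11, adjusted p = 4.4e-05). On chromatin it was at 16.4 and 16.6 CPM in wt, 20.8 and 19.97 CPM in shDicer, and 23.6 and 27.6 CPM in shAgo2, where it was higher (0.63 ± 0.10, adjusted p = 4.2e-04). Its mRNA was below wt while its chromatin RNA in shAgo2 was above wt, the only such case among members called in both. ZNF765 was at 46.6, 49.2 and 42.1 CPM in mRNA-seq wt and 22.2, 27.6 and 25.1 CPM in shDicer, and ZNF468 at 34.0, 35.6 and 33.7 CPM and 21.7, 25.1 and 20.5 CPM. Both were below wt in every shDicer library, and neither was called on chromatin against wt. ZNF701 was lower in shDicer in both assays (−1.15 ± 0.19 in mRNA and −0.64 ± 0.11 on chromatin).

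Some members went from near silence in wt mRNA to clear expression in shDicer. Of the 68 members higher in mRNA-seq, 14 had a wt mean below 1 CPM, and their shDicer means ran from 3.55 to 38.9 CPM. All 14 were transcribed in wt, with chromatin means from 2.12 to 41.4 CPM, and 11 of them were higher in chrRNA-seq shDicer. A member near silence in wt mRNA could pass the count filter through its shDicer level alone, so this set leans toward rises. Over all genes tested in chrRNA-seq shDicer 11% were higher. The share among all genes picked by the same mRNA values was not counted. ZNF544 of C9 was at 0.649, 0.800 and 1.02 CPM in wt mRNA and 38.8, 40.6 and 37.4 CPM in shDicer (5.57 ± 0.17, adjusted p = 2.4e-09). On chromatin it went from 41.7 and 38.8 CPM to 141 and 128 CPM in shDicer and 140 and 148 CPM in shAgo2 (1.74 ± 0.09 and 1.84 ± 0.09). The difference on the log2 scale was thus larger in mRNA, where the wt level was near 1 CPM.

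ZNF558 of C2 was at 0.811, 0.978 and 0.921 CPM in wt mRNA and 30.2, 32.4 and 37.7 CPM in shDicer, and ZNF331 of C8 at 0.649, 0.800 and 0.717 CPM and 20.7, 20.2 and 25.5 CPM. On chromatin ZNF331 was at 19.4 and 19.9 CPM in wt, 54.4 and 49.7 CPM in shDicer, and 46.0 and 44.1 CPM in shAgo2. ZNF229 of C7 was at 0.567, 0.178 and 0.205 CPM in wt mRNA and 15.3, 16.6 and 11.9 CPM in shDicer. All 3 genes were above every wt library in shDicer. ZNF671 of C9, named after its values were seen, had 0 counts in all 3 wt mRNA libraries and was at least 13.0-fold higher in shDicer, against a floor of 3 counts per library.

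**Figure D4:**
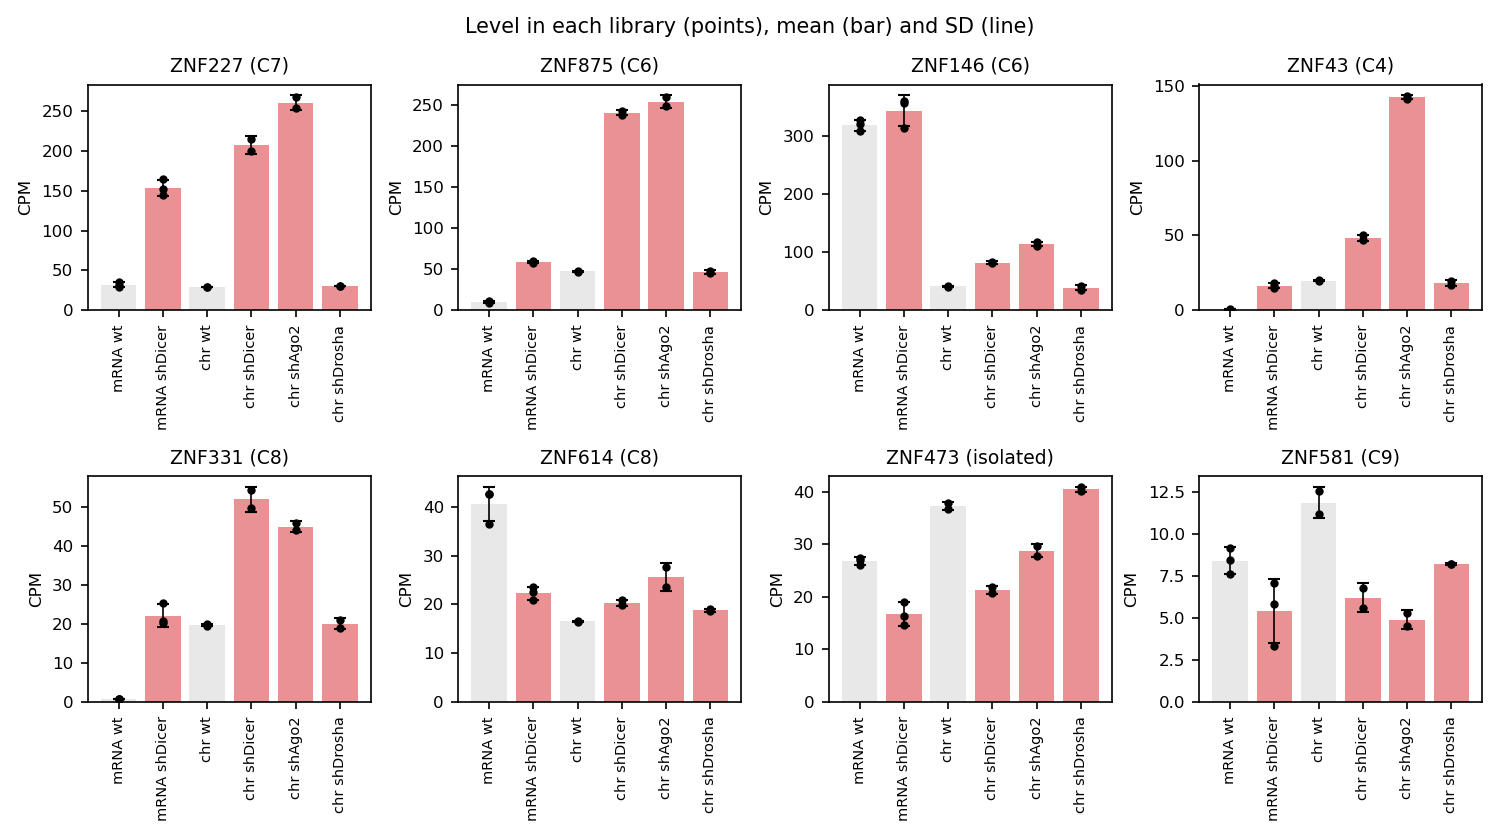
Level in CPM (y axis, from 0, scale set per panel) of 8 members in each group (x axis), with points for libraries, bars for means and lines for SD. ZNF43 is highest in chrRNA-seq shAgo2 (143 and 141 CPM), ZNF227 and ZNF875 are high in both inducible lines, and ZNF614 is lower in mRNA-seq shDicer than in mRNA-seq wt.

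The shDicer and shAgo2 lines were also tested against each other. Of 234 members, 24 were lower in shDicer and 0 higher, beside 1.34% and 1.37% of all genes. C4 held 10 of the 24, C8 held 5 and C3 held 4, and 22 of the 24 were higher than wt in shAgo2. In 7 of them more than 20% of 31-base stretches are shared with other genes. With counts scaled from TPM 0 were called, and the count was 15 without shDicer replicate 1 and 11 without either shAgo2 library.

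ZNF43 of C4, a KRAB protein of 19 fingers, was at 20.04 and 19.3 CPM in wt, 49.9 and 47.0 CPM in shDicer, 143 and 141 CPM in shAgo2, and 19.8 and 16.5 CPM in shDrosha. The groups were ordered wt, shDicer, shAgo2 without overlap, and the difference between the inducible lines was −1.55 ± 0.08 (adjusted p = 1.2e-06). ZNF682 was at 4.80 and 5.49 CPM in wt, 13.4 and 13.7 CPM in shDicer, and 32.8 and 33.0 CPM in shAgo2. Its difference of −1.28 ± 0.10 had the same order (adjusted p = 1.8e-05). ZNF91 and ZNF93, known for binding primate retroelements and named after their values were seen, were both lower in shDicer than in shAgo2. ZNF91 was at 17.7 and 18.9 CPM in wt, 39.4 and 39.7 CPM in shDicer, and 102 and 96.0 CPM in shAgo2 (−1.32 ± 0.08, adjusted p = 1.7e-06). ZNF93 was at 11.0 and 11.9 CPM in wt, 13.9 and 15.4 CPM in shDicer, and 40.7 and 38.2 CPM in shAgo2 (−1.43 ± 0.10, adjusted p = 1.1e-05).

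Members with and without KRAB differed in their counts. Of 200 tested members with KRAB, 89 were higher and 6 lower in chrRNA-seq shDicer, with a median of 0.39, and of 34 without KRAB 10 were higher and 4 lower, with a median of −0.01. In shAgo2 the counts were 120 and 3 with KRAB and 12 and 5 without, with medians of 0.67 and 0.14. In mRNA-seq 65 were higher and 8 lower of 180 with KRAB, and 3 and 0 of 27 without. Without KRAB, 29.4% were still higher in shDicer and 35.3% in shAgo2, beside 11% and 12.5% of all genes. In mRNA-seq 11.1% were higher, beside 15.6%. Of the members without KRAB, 15 lie in C9, with medians of −0.37 in shDicer and −0.53 in shAgo2. The 42 with KRAB in C9 had medians of 0.43 and 0.59. Within C6 the 3 members without KRAB were higher in both lines like the other 21, so the split was not seen in every cluster. These counts were not tested against each other.

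Members fell on chromatin less often than all genes did. Of 234 tested, 10 were lower in shDicer and 8 in shAgo2, beside 10.5% and 12.1% of all genes. In shDicer or shAgo2, 12 members were lower, of which 9 lie in C9, the largest cluster, and 6 lack KRAB. In C9 7 of 57 were lower in each line, near the shares of all genes. Of 48 other coding genes tested between C8 and C9, 11 were lower in shDicer and 15 in shAgo2. ZNF581, a short protein of 4 fingers without KRAB, was at 12.5 and 11.2 CPM in wt, 6.79 and 5.56 CPM in shDicer, 5.26 and 4.48 CPM in shAgo2, and 8.16 and 8.22 CPM in shDrosha. All libraries of these 3 groups lay below wt, and it was called in shDicer (−0.94 ± 0.14, adjusted p = 2.5e-04) and shAgo2 (−1.28 ± 0.15, adjusted p = 2.6e-05). ZNF787 and ZNF628, also of C9 and without KRAB, were lower in both lines, ZNF865 in shDicer and ZNF784 in shAgo2.

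ZNF324 of C9, a KRAB protein, was at 89.1 and 82.4 CPM in wt, 47.4 and 46.4 CPM in shDicer, and 50.6 and 55.0 CPM in shAgo2. ZNF473, which has KRAB, stands alone and is known to act in histone pre-mRNA processing, was at 37.9 and 36.8 CPM in wt, 20.7 and 21.9 CPM in shDicer, 29.6 and 27.9 CPM in shAgo2, and 40.9 and 40.2 CPM in shDrosha. Both genes were below wt in every library of the inducible lines. ZNF473 mRNA was at 26.1, 27.0 and 27.4 CPM in wt and 16.4, 19.1 and 14.6 CPM in shDicer (−0.69 ± 0.12, adjusted p = 6.1e-04).

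Among 12 partners and effectors of KRAB proteins, TRIM28, which is itself a gene of chromosome 19, was lower on chromatin in the libraries labelled shDicer, shAgo2 and shDrosha. It was at 385 and 407 CPM in wt, 161 and 170 CPM in shDicer, 142 and 148 CPM in shAgo2, and 233 and 183 CPM in shDrosha, all below wt (adjusted p = 2.5e-06, 7.1e-07 and 1.8e-03). Its mRNA was at 190, 188 and 199 CPM in wt and 177, 129 and 120 CPM in shDicer, and was not called (−0.44 ± 0.12, adjusted p = 0.011). TRIM28 lies past the end of C9. Of the 6 coding genes tested there on chromatin, TRIM28 included, 3 were lower in shDicer, 4 in shAgo2 and 1 in shDrosha. Their medians were −0.49, −0.71 and −0.25, and the part of this stretch in the TRIM28 values was not tested. Of the 12 genes, 1 was higher and 2 lower in chrRNA-seq shDicer, beside 11% and 10.5% of all genes. In shAgo2 these counts were 2 and 2, beside 12.5% and 12.1%, and in shDrosha 0 and 1, beside 1.19% and 2.18%. In mRNA-seq they were 0 and 4, beside 15.6% and 14.2%. The 4 lower in mRNA were the HP1 genes CBX1 and CBX3, ATRX and PPHLN1, while the HP1 gene CBX5 was not called there (−0.02 ± 0.08). DAXX was the gene higher in shDicer (4.61 ± 0.82), from 0.415 and 0.379 CPM in chrRNA-seq wt. In shAgo2 DAXX and ATRX were higher. SETDB1 was not called in any of these comparisons with wt.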

How the data were processed

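The authors mapped reads to Ensembl 89 transcripts with kallisto and deposited estimated counts and TPM per transcript. Here the transcripts were assigned to genes of GENCODE 44 (193697 of 217082 matched, 89.2%), and estimated counts were summed per gene and rounded. edgeR 4.0.16 (R 4.3.3) was used with TMM factors, filterByExpr, glmQLFit and glmQLFTest, with Benjamini-Hochberg adjustment over all genes tested. The 8 chrRNA-seq libraries entered 1 fit and the 6 mRNA-seq libraries another. SE is the log2 fold change divided by the root of F. Against wt the thresholds are those of the study's methods, at 0.001 for mRNA-seq, 0.005 for shDicer and shAgo2 on chromatin and 0.05 for shDrosha, and 0.005 was set here between knockdowns. The study used DESeq2, which was run here as an alternative (1.42.0). CPM are scaled to the counts assigned to genes. A level of 3 counts equals 0.139 to 0.294 CPM over the libraries, for counting error only.

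Members were named if, in a comparison with wt, they were past the threshold, averaged 1 log2 CPM or more and ranked among the top 5 or bottom 5 by log2 fold change. Also named were the 5 on each side of LINC00665, the 5 highest in TPM per assay, the ends of each cluster, and members called in opposite directions. The members and lists were chosen with earlier results of these data known. A KRAB A box was called from a profile score above 0 in a window of 37 residues of the translated transcript. Scripts were tested on simulated data. Other alternatives were other scalings, no filter, TPM-scaled counts, leaving out libraries and a replicate block. Small RNA libraries were not analysed here.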

Additional observations from a re-analysis of the deposited data

Results flagged for a closer look

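The difference between chrRNA-seq shDicer and shAgo2 was tested directly, and 24 members were lower in shDicer. Among the members chosen for naming, the log2 difference was −1.55 for ZNF43, −1.28 for ZNF682, −0.92 for ZNF701, −0.67 for ZNF468, −0.48 for ZNF146 and −0.41 for ZNF792. These 6 passed the threshold of the test between the lines. For ZNF701 and ZNF468 the shAgo2 level was not called against wt. No group has 4 libraries, so single libraries could not be tested as outliers.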

How the results depend on the processing

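In every setting run, members called were more often higher than lower in chrRNA-seq shDicer and shAgo2 and in mRNA-seq shDicer. With counts scaled from TPM, the counts that moved were 34 higher and 0 lower in mRNA-seq shDicer, 55 higher and 1 lower in chrRNA-seq shDicer, 84 higher and 1 lower in shAgo2, 0 higher and 0 lower in shDrosha, 0 lower in shDicer against shAgo2, 56 higher and 0 lower in shDicer against shDrosha and 75 higher and 0 lower in shAgo2 against shDrosha. Under the same setting, the median log2 fold changes that moved were 0.52 for C2, 1.04 for C5, 1.19 for C6, 1.66 for C7 and 0.13 for C9 in mRNA-seq shDicer, 0.31 for C2, 1.19 for C6 and 1.30 for C7 in chrRNA-seq shDicer, 0.56 for C2, 0.51 for C3, 0.80 for C4, 1.40 for C5, 1.42 for C6, 0.21 for C8 and 0.50 for C9 in shAgo2 and −0.030 for C7, −0.048 for C8 and −0.075 for C9 in shDrosha. With library size alone as scaling, the counts that moved were 6 lower in chrRNA-seq shDicer and 2 higher and 0 lower in shDrosha. Under the same setting, the median log2 fold changes that moved were −0.016 for C1, 0.30 for C2, 1.06 for C6 and 0.39 for C9 in chrRNA-seq shDicer, 0.52 for C2, 0.47 for C3, 0.69 for C4, 1.41 for C5, 1.28 for C6, 0.30 for C8 and 0.44 for C9 in shAgo2 and 0.024 for C2, 0.070 for C3, 0.038 for C4, −0.017 for C5, −0.0024 for C6, 0.073 for C7, 0.033 for C8 and −0.027 for C9 in shDrosha. With cluster gaps above 2 Mb, the median log2 fold changes that moved were 0.38 for C2, 1.08 for C5 and −0.022 for C8 in mRNA-seq shDicer, 0.17 for C2, 0.93 for C7, 0.13 for C8 and 0.13 for C9 in chrRNA-seq shDicer, 0.47 for C3, 1.27 for C5, 1.18 for C7, 0.35 for C8 and 0.35 for C9 in shAgo2 and −0.067 for C8 and −0.067 for C9 in shDrosha. With cluster gaps above 0.5 Mb, the median log2 fold changes that moved were 0.31 for C2, 1.23 for C7 and 0.51 for C9 in chrRNA-seq shDicer, 0.60 for C2 and 0.61 for C9 in shAgo2 and −0.074 for C9 in shDrosha. With an absolute log2 fold change above 1 required, the counts that moved were 2 lower in mRNA-seq shDicer, 47 higher and 0 lower in chrRNA-seq shDicer, 76 higher and 2 lower in shAgo2, 0 lower in shDrosha, 13 lower in shDicer against shAgo2, 45 higher and 0 lower in shDicer against shDrosha and 71 higher and 0 lower in shAgo2 against shDrosha. At an adjusted p under 0.05, the counts that moved were 34 lower in mRNA-seq shDicer, 20 lower in chrRNA-seq shDicer, 16 lower in shAgo2, 66 lower in shDicer against shAgo2, 10 lower in shDicer against shDrosha and 9 lower in shAgo2 against shDrosha. Without the low-count filter, the counts that moved were 13 lower in mRNA-seq shDicer and 5 lower in shDrosha. Under the same setting, the median log2 fold changes that moved were 0.72 for C4 in shAgo2 and −0.088 for C9 in shDrosha. With DESeq2, the counts that moved were 5 lower in shAgo2, 0 higher and 1 lower in shDrosha and 2 lower in shAgo2 against shDrosha. With a replicate block, the counts that moved were 0 higher and 0 lower in shDrosha, 15 lower in shDicer against shAgo2 and 3 lower in shDicer against shDrosha. With the numbers of shDrosha crossed in the block, chosen after seeing the data since shDicer and shDrosha libraries of 1 number correlated at −0.13, the counts that moved were 4 higher and 9 lower in shDrosha, 42 lower in shDicer against shAgo2 and 8 lower in shDicer against shDrosha. Over members with at least 80% unique 31-base stretches, the counts that moved were 5 lower in shAgo2, 0 higher and 1 lower in shDrosha and 2 lower in shAgo2 against shDrosha. With only the groups compared in the fit, the counts that moved were 14 lower in shAgo2, 0 higher in shDrosha and 2 lower in shDicer against shDrosha. When 1 library at a time was left out, counts ran over 3 to 7 lower in mRNA-seq shDicer, 5 to 10 lower in chrRNA-seq shDicer, 4 to 5 lower in shAgo2, 0 to 0 higher in shDrosha, 0 to 3 lower in shDrosha, 11 to 17 lower in shDicer against shAgo2, 3 to 4 lower in shDicer against shDrosha and 0 to 3 lower in shAgo2 against shDrosha. In mRNA-seq shDicer the medians then ran from 0.16 to 0.36 for C2, 0.31 to 0.47 for C3, 0.35 to 0.52 for C4 and −0.34 to −0.24 for C8. In chrRNA-seq shDicer the medians then ran from −0.069 to 0.012 for C1, 0.20 to 0.31 for C2, 0.11 to 0.25 for C3, 0.99 to 1.04 for C6 and 1.08 to 1.21 for C7. In shAgo2 the medians then ran from 0.44 to 0.53 for C2, 0.41 to 0.50 for C3, 0.66 to 0.72 for C4, 1.36 to 1.38 for C5, 1.20 to 1.27 for C6, 1.38 to 1.49 for C7, 0.25 to 0.30 for C8 and 0.42 to 0.49 for C9. In shDrosha the medians then ran from −0.27 to −0.16 for C1, −0.019 to 0.078 for C3, −0.030 to 0.026 for C4, −0.038 to 0.059 for C5, −0.049 to −0.0011 for C8 and −0.096 to −0.067 for C9. Same-numbered wt and shDicer libraries of mRNA-seq correlated at only 0.046 to 0.081, so the numbers were not taken as pairs. Among the members chosen for naming no called log2 fold change changed sign, while 48 of all 261 did so under some setting without being called there or in the reported fit (at most 0.44 in size in that fit). In addition 77 values lost and 34 gained their call over settings other than leaving out a library. The cause of these differences was not tested, other than smaller samples and the added fold requirement by construction. Groups of 2 or 3 libraries limit every comparison, and a lone remaining library was assumed to vary like the others.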

Other observations

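Chromosome 19 holds 11 more zinc finger genes, named ZFP or ZNF with a closing letter, that were not counted as members. On chromatin 9 of these 11 were higher in shDicer and 9 in shAgo2, with 1 lower in each, beside 11% and 12.5% of all genes higher. Their median log2 fold changes were 1.15 and 1.39, and 0 of 11 were called in shDrosha. Most lie where other coding genes were often higher too. ZFP14, ZFP82, ZNF585A, ZNF585B and ZFP30 are in the span of C6, and ZFP36, ZNF780B and ZNF780A between C6 and C7. All of these named genes were higher in both lines, as was ZFP28 of the C9 span, while ZNF324B was lower and ZNF587B was not called. In mRNA-seq shDicer 6 of 10 were higher and 0 lower, with a median of 1.11.

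ZNF878 of C3 and ZNF578 of C8, named after their values were seen, had 0 counts in both chrRNA-seq wt libraries. In shAgo2 they averaged 2.42 and 0.909 CPM, at least 13.2-fold and at least 4.95-fold higher than a floor of 3 counts per library.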
